A study of Mus musculus with 5 samples.

Results

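The genes described here are 10 that mark endothelial cells, the cells that line blood vessels: Pecam1, Cdh5, Emcn, Plvap, Kdr, Flt1, Tek, Tie1, Eng and Vwf. They were taken as a fixed list of names, and every probe set whose only gene symbol in the platform annotation was one of them was kept. All 10 genes were found, with 15 probe sets between them, out of 18193 genes and 45037 probe sets measured. A probe set is the group of short oligonucleotides on the array that reads one transcript. The 5 RNA samples came from cultured mouse cells of C57BL/6J background labelled as aortic endothelial cells, grown in medium with heparin and endothelial growth supplement and titled with a time of 24 h. By title, 2 arrays were TNF-LTBR and 3 were control. The series title speaks of aortic smooth muscle cells, whereas the labels of all 5 samples give endothelial cells. All 5 carry one treatment text, which names no agent but PBS, so the TNF-LTBR group is known from its titles only, and which agonists were used at which dose is not stated in the labels. The labels do not say whether each sample was an independent culture, so a p-value here reflects sample-to-sample spread that may be technical.

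Endothelial cells hold to each other through VE-cadherin, the product of Cdh5, and through PECAM-1 (CD31), and these proteins together with von Willebrand factor are the usual test of an endothelial culture. Their survival and sprouting are controlled by receptor tyrosine kinases for VEGF, encoded by Kdr and Flt1, and for angiopoietins, encoded by Tek, with Tie1 as its partner. TNF signals through TNF receptors and the lymphotoxin beta receptor (LTBR) through a related route, and both lead to NF-kB, which switches on inflammatory genes in vessel cells. The comparison asked whether endothelial identity genes stood higher or lower on the TNF-LTBR arrays than on the controls.

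The arrays fell apart along a line that crosses the titles, as the correlation of log2 values over all probe sets showed. It was 0.975 between TNF-LTBR array 2 and control array 3, and 0.971 between TNF-LTBR array 1 and control array 2. Within titles it was lower, at 0.947 between the TNF-LTBR arrays and 0.949 to 0.965 among the controls, and it was lowest, at 0.936, between TNF-LTBR array 1 and control array 3. Each result below is therefore given by array. A list of 9 NF-kB targets was read beside the titles. It was chosen with earlier results of these data known, so it is not independent evidence of its direction. The mean log2 value of all 9 was higher in TNF-LTBR, with a median difference of 1.24. With limma 0 passed after adjustment, against 0.0% of all probe sets, and 6 had an unadjusted p under 0.05, against 3.04% of all probe sets. The groups did not overlap for 7 of the 9, with both TNF-LTBR arrays above all controls as for 8.81% of all probe sets. Nfkb2, the precursor of the NF-kB subunit p52, had 1155 and 1202 on TNF-LTBR arrays 1 and 2, against 418, 322 and 252 on control arrays 1 to 3. Birc3, an inhibitor of apoptosis, read 1962 and 1995 in TNF-LTBR, against 611, 556 and 811 in control. The groups overlapped for Tnfaip3, the A20 inhibitor of NF-kB, at 1404 and 4565 in TNF-LTBR against 873, 744 and 1856 in control. They also overlapped for Icam1, a leukocyte adhesion molecule, at 3039 and 706 in TNF-LTBR against 818, 975 and 120 in control.

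The 10 endothelial genes ranged from the dim end of the arrays to the bright end. Brightness was read as the rank of a probe set's intensity among all 45037 on the same array, as a percentile. A rank describes signal and not transcript amount, because probe sets differ in how strongly they respond. The brightest probe sets of Vwf and Tie1 lay below the array median on all 5 arrays, and that of Tek on 4 of 5. Pecam1, Cdh5 and Emcn were above the median on 3 arrays each, Flt1 on 4, and Kdr, Eng and Plvap on all 5. Over the 10 genes the median of the mean percentile was 52.3, against 63.3 for the brightest probe sets of all genes. The file holds no detection calls, so a dim probe set cannot be called absent. The highest intensity of the 7 measured lymphocyte markers on any array was 150.2. The brightest probe sets of Vwf, Tie1 and Tek exceeded it on 0 arrays, Cdh5 on 1 and Pecam1 on 2. Emcn and Flt1 exceeded it on 3, and Kdr, Eng and Plvap on 5. Vwf, Cdh5 and Pecam1, the usual markers of an endothelial culture, had mean percentiles of 4.73, 45.1 and 47.3. The 10 genes thus gave no single answer on the cell type in the labels, and the arrays are called by their titles below.

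**Figure D1:**
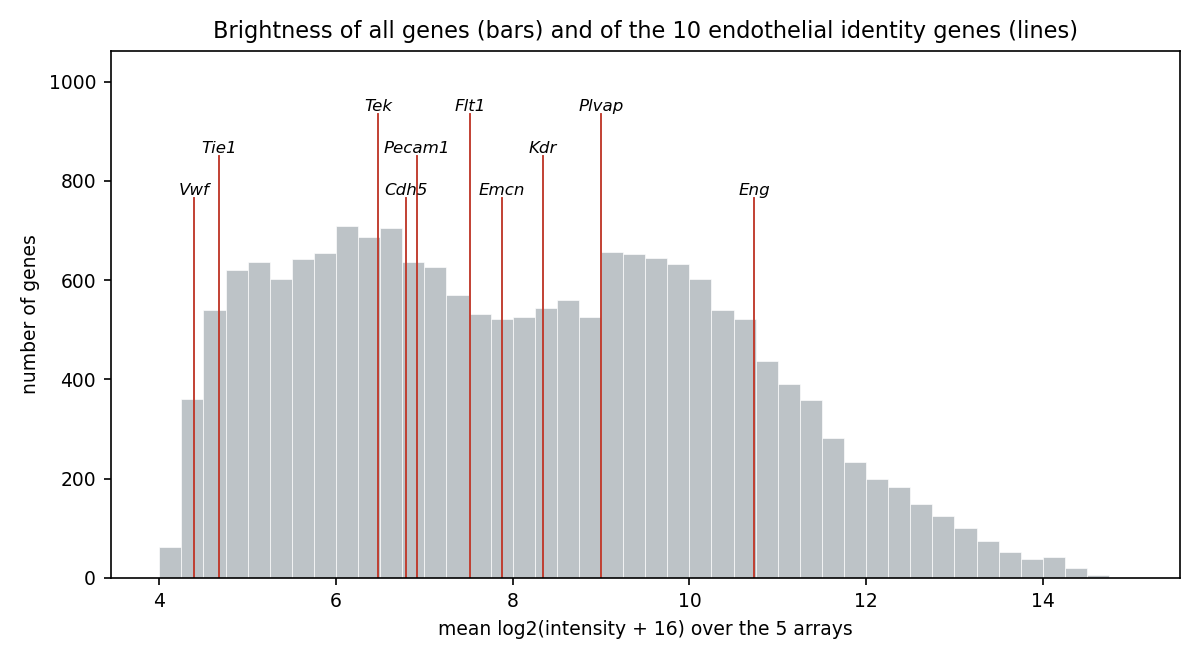
The bars give the number of genes (vertical axis) by the mean log2(intensity + 16) of their brightest probe set over the 5 arrays (horizontal axis), and the red lines mark the 10 endothelial genes. Vwf and Tie1 sit at the dim end, Pecam1, Cdh5 and Tek between 6.48 and 6.92, and Eng is the brightest at 10.74.

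Pecam1 and Cdh5, the adhesion molecules of endothelial junctions, were low on the same arrays. Pecam1 read 121 and 52.6 on TNF-LTBR arrays 1 and 2, against 199, 161 and 56.0 on control arrays 1 to 3. TNF-LTBR array 2 and control array 3 were the low ones and the other 3 arrays were at least 121, so the groups overlapped. On the log2(intensity + 16) scale used for all means and differences, Pecam1 was at 6.60 ± 0.70 in TNF-LTBR and 7.13 ± 0.84 in control (SD, n = 2 and n = 3). The difference was -0.53 with a 95% interval of -1.94 to 0.87 (limma adjusted p 1.00).

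Cdh5 had 2 probe sets. The brighter one, 1433956_at, read 135 and 28.7 on TNF-LTBR arrays 1 and 2, against 236, 123 and 55.3 on control arrays 1 to 3. Here too TNF-LTBR array 2 and control array 3 were lowest, and TNF-LTBR array 1 lay between control arrays 1 and 2. The mean was 6.36 ± 1.24 in TNF-LTBR and 7.08 ± 0.91 in control (SD, n = 2 and n = 3), a difference of -0.72 with an interval of -2.47 to 1.02 (limma adjusted p 1.00). The direction turned without TNF-LTBR array 2, to 0.16. The other probe set, 1422047_at, read 62.2 to 80.1 in TNF-LTBR and 64.3 to 85.2 in control, and stayed below the array median on every array. Its lowest arrays were TNF-LTBR array 2, at 62.2, and control array 1, at 64.3, while control array 3 read 68.2.

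Emcn, which encodes endomucin, a sialomucin of venous and capillary endothelium, ranged most widely of the 10 genes on the log2 scale. It read 477 and 78.4 on TNF-LTBR arrays 1 and 2, against 221, 661 and 81.4 on control arrays 1 to 3. The highest array was a control and the lowest a TNF-LTBR array, and the values of TNF-LTBR array 2 and control array 3 were nearly alike. Over the 5 arrays Emcn spanned 2.84 on the log2 scale, an 8.43-fold range of intensity. The mean was 7.75 ± 1.69 in TNF-LTBR and 7.97 ± 1.40 in control (SD, n = 2 and n = 3), and the difference of -0.21 had an interval of -2.63 to 2.20 (limma adjusted p 1.00). It was 0.98 without TNF-LTBR array 2, -1.40 without TNF-LTBR array 1 and 0.51 without control array 2.

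Plvap, which encodes the protein of the diaphragms that close endothelial fenestrae and caveolae, was the one member whose groups did not overlap. It read 470 and 759 on TNF-LTBR arrays 1 and 2, against 461, 401 and 452 on control arrays 1 to 3. TNF-LTBR array 2 stood alone, while TNF-LTBR array 1 lay just above control array 1. Plvap was at 9.26 ± 0.48 in TNF-LTBR and 8.82 ± 0.10 in control (SD, n = 2 and n = 3), 1.35-fold, with a log2 difference of 0.44 and an interval of -0.16 to 1.03 (limma adjusted p 1.00). The difference was 0.10 without TNF-LTBR array 2 and 0.77 without TNF-LTBR array 1. Across all probe sets, 8.81% had both TNF-LTBR arrays above all controls and 6.85% had both below, against 1 and 0 of the 15 probe sets here.

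Kdr and Flt1 encode VEGF receptors 2 and 1, the signalling receptor and a high-affinity receptor that can act as a decoy. Kdr read 337 and 255 on TNF-LTBR arrays 1 and 2, against 344, 364 and 258 on control arrays 1 to 3. Its 5 values lay within 1.43-fold of each other, with TNF-LTBR array 2 and control array 3 again the lowest. The mean of Kdr was 8.27 ± 0.27 in TNF-LTBR and 8.39 ± 0.25 in control (SD, n = 2 and n = 3), a difference of -0.11 with an interval of -0.72 to 0.49 (limma adjusted p 1.00).

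Flt1 was read by 4 probe sets, and all 4 were lowest on TNF-LTBR array 2 and control array 3. The brightest, 1451756_at, read 216 and 146 on TNF-LTBR arrays 1 and 2, against 228, 195 and 92.0 on control arrays 1 to 3. 1419300_at read 243 and 99.6 in TNF-LTBR, against 264, 197 and 56.1 in control. 1440926_at read 217 and 59.9 in TNF-LTBR, against 163, 164 and 63.2 in control. The same pair of arrays was low on each of these probe sets. 1454037_a_at read 158 and 65.0 in TNF-LTBR, against 184, 114 and 74.7 in control. The log2 differences between groups were small on all 4, at 0.13, 0.09, -0.04 and -0.16 in that order, and the widest interval ran from -1.54 to 1.72. The sign on the brightest probe set turned to -0.23 without control array 3 and to -0.13 without TNF-LTBR array 1.

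Tek and Tie1, the angiopoietin receptor and its partner, were with Vwf the dimmest of the 10 genes. Tek read 92.8 and 46.9 on TNF-LTBR arrays 1 and 2, against 58.6, 119 and 65.4 on control arrays 1 to 3. Its lowest arrays were TNF-LTBR array 2 and control array 1. The difference was -0.18 with an interval of -1.20 to 0.85, between 6.37 ± 0.56 in TNF-LTBR and 6.55 ± 0.46 in control (SD, n = 2 and n = 3, limma adjusted p 1.00), and it turned to 0.22 without TNF-LTBR array 2 and to 0.09 without control array 2. Tie1 read 5.5 and 5.2 in TNF-LTBR, against 45.5, 5.4 and 2.0 in control. Its percentile was 30.7 on control array 1 and at most 5.89 on the other arrays. The Tie1 difference of -0.43 (interval -1.74 to 0.89) rested on that array and was 0.12 without it.

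Eng and Vwf bracket the list. Eng encodes endoglin, a co-receptor for TGF-beta family ligands that is strong on endothelium and also made by mesenchymal cells. It read 1563 and 1694 on TNF-LTBR arrays 1 and 2, against 1550.2, 1858 and 1811 on control arrays 1 to 3, a 1.20-fold range over all 5. Its mean was 10.68 ± 0.08 in TNF-LTBR and 10.77 ± 0.14 in control (SD, n = 2 and n = 3), a difference of -0.09 with an interval of -0.46 to 0.27 (limma adjusted p 1.00). Its dimmer probe set read 626 to 663 in TNF-LTBR and 585 to 715 in control, with a difference of -0.03. Eng was thus the brightest member and the one that varied least. Vwf, which encodes von Willebrand factor, the platelet-tethering protein stored in endothelial granules, read 5.8 and 2.9 on TNF-LTBR arrays 1 and 2, against 7.2, 7.1 and 2.3 on control arrays 1 to 3. At this level the added 16 exceeds the intensity, so its log2 difference of -0.08 says little.

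**Figure D2:**
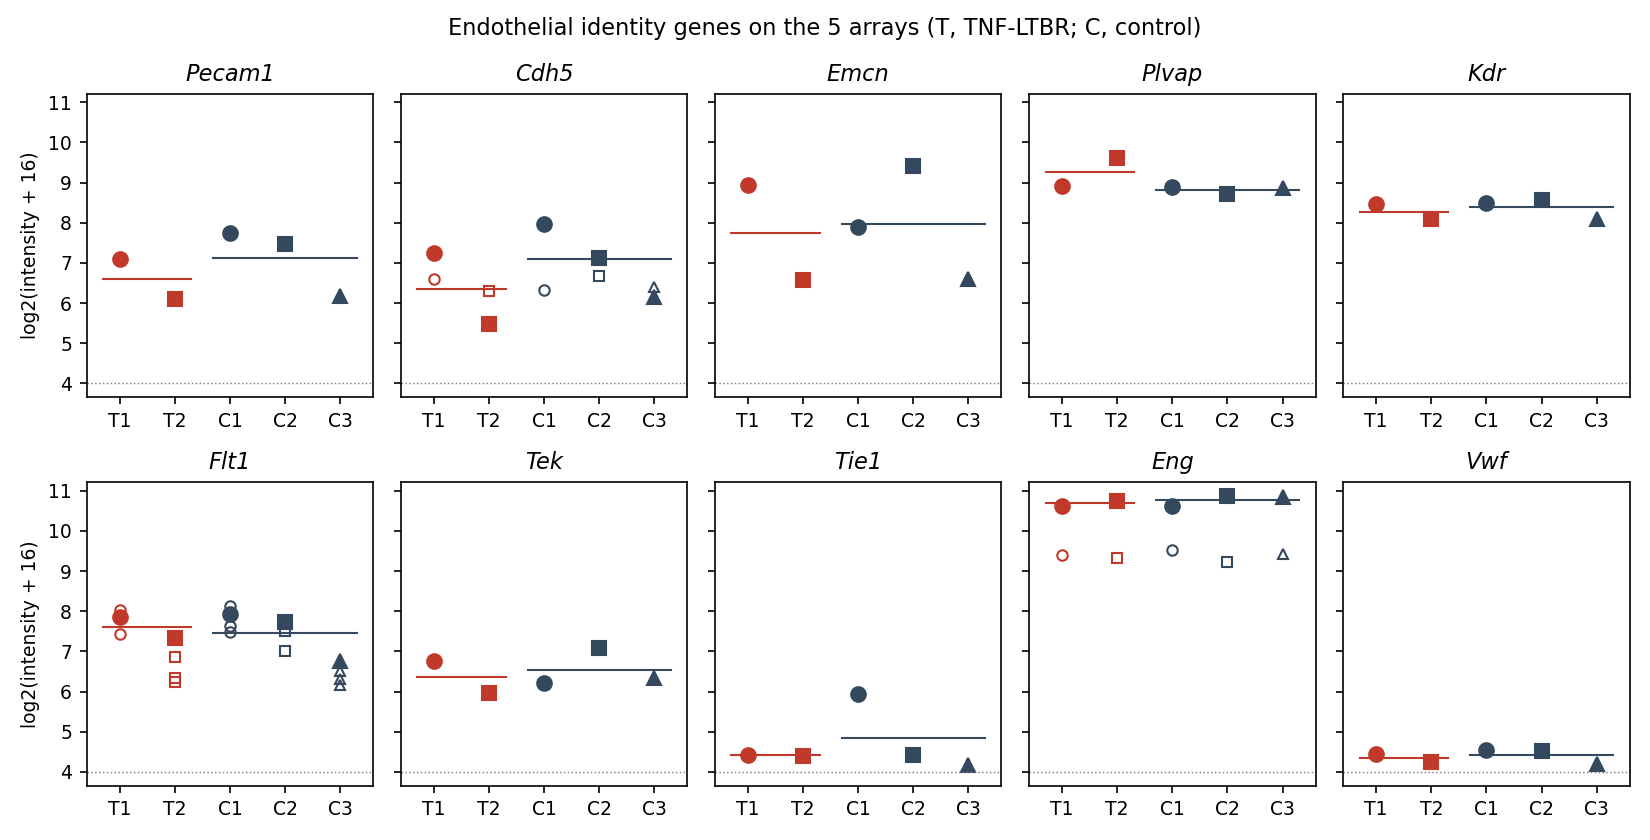
Each panel gives log2(intensity + 16) of 1 gene on TNF-LTBR arrays 1 and 2 (T1, T2, red) and control arrays 1 to 3 (C1 to C3, dark). Filled points are the brightest probe set, open points the others, bars the group means of the brightest and the dotted line an intensity of 0. Pecam1, Cdh5, Emcn and Flt1 are low on T2 and C3, while Eng is level.

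For Flt1, Emcn and Eng the 250 bases before the gene's start are printed, to set side by side a pair of genes that were low on the same arrays and one that was level. The sequences are from RefSeq on GRCm38.p6, whose table held a window for 6 of the 10 genes, and read 5′ to 3′ on the gene's strand. Capitals mark AGGAAG or its reverse complement CTTCCT, a hexamer around the GGAA core to which Ets factors, major regulators of endothelial genes, bind. The Flt1 window is chr5:147726012-147726261 on the minus strand, Emcn is chr3:137340828-137341077 and Eng chr2:32646345-32646594, both on the plus strand.
Flt1: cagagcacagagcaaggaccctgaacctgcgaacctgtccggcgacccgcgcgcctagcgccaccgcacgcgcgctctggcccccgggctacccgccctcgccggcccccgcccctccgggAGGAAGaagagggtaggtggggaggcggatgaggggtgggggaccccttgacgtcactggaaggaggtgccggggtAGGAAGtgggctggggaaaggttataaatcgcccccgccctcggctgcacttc
Emcn: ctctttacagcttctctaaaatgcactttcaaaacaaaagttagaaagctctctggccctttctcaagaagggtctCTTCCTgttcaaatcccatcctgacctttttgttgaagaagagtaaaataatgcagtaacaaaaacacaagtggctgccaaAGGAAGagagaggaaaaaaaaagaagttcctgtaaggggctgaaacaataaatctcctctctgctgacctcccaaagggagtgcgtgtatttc
Eng: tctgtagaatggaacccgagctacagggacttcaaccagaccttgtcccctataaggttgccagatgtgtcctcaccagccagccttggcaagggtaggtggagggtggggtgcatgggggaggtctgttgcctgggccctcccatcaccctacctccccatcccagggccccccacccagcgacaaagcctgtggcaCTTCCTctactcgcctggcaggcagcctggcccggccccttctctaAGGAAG
Each of the 3 windows held the hexamer 2 times, counted on both strands. It was also in the Tie1 window, 1 time, and these letters were not in the Tek and Kdr windows. Of all 32851 windows in the table, 29.5% held it.

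Taken over the list, no difference between the groups was detected at this number of arrays. With limma, 0 of the 15 probe sets passed an adjusted p of 0.05, and 0 had an unadjusted p under 0.05. The background was 0.0% of all 45037 probe sets for the adjusted p, with 3.04% (1369) under an unadjusted 0.05. Of the 15 probe sets 3 were higher in TNF-LTBR and 12 lower, and the direction hung on single arrays: 12 were higher without TNF-LTBR array 2, 7 without control array 1 or without control array 2, and 1 without control array 3 or without TNF-LTBR array 1. The median log2 difference over the 10 brightest probe sets was -0.15, beside 0.01 over all probe sets. The intervals still allow changes of over 2-fold in either direction for Emcn and the brighter probe set of Cdh5. That of the dimmer Cdh5 probe set ran from -0.75 to 0.70. For the brighter probe set of Eng they exclude a rise of more than 0.27 and a fall of more than 0.46 on the log2 scale. The interval of the dimmer Eng probe set ran from -0.44 to 0.38.

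**Figure D3:**
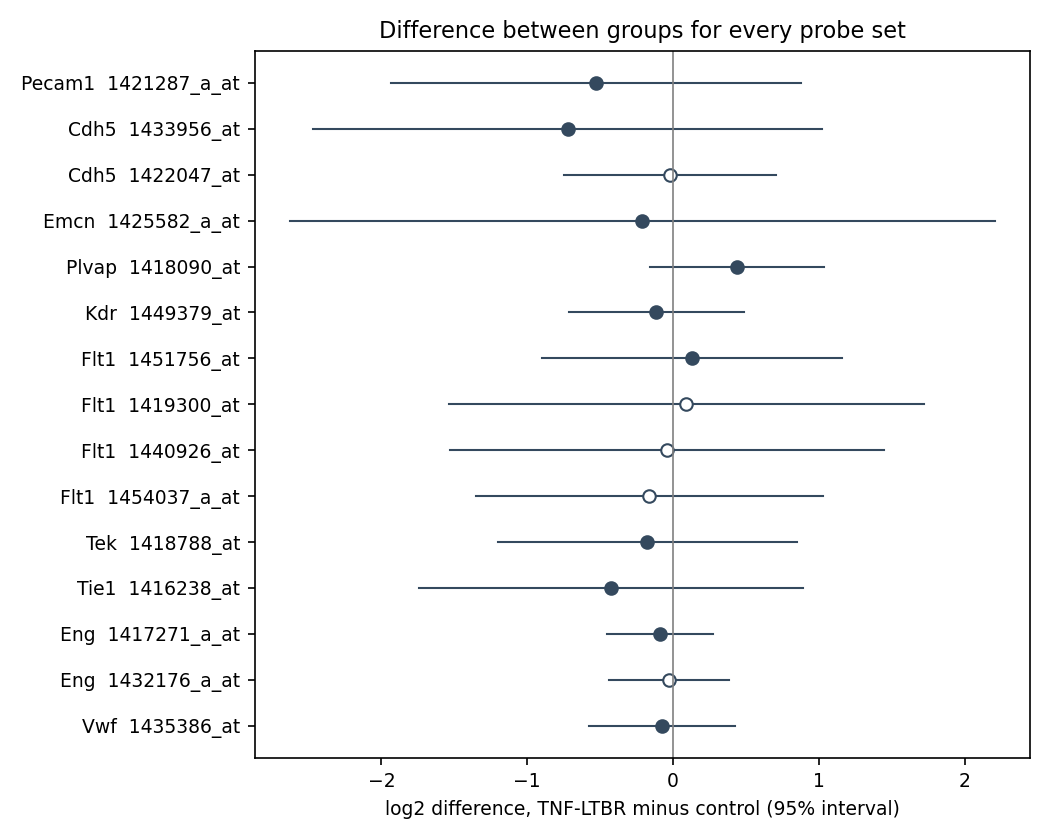
Points give the log2 difference, TNF-LTBR minus control, for all 15 probe sets, and lines the 95% interval from limma. Filled points are the brightest probe set of a gene. Every interval spans 0, and those of Eng and Vwf are the narrowest among the brightest probe sets.

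The lowest arrays were often the same pair, one of each title. TNF-LTBR array 2 and control array 3 held the 2 lowest values for 10 of the 15 probe sets and for 7 of the 10 brightest, which were Pecam1, Cdh5, Emcn, Kdr, Flt1, Tie1 and Vwf. Tie1 and Vwf were so dim, at no more than 7.2 apart from Tie1 on control array 1, that the order of their arrays says little. Without them the counts were 8 of 13 probe sets and 5 of 8 genes. The pair held the 2 highest values for none of the 15. Over all probe sets these arrays were the 2 lowest for 17.8% and the 2 highest for 18.4%, and over the brightest probe sets of all genes the 2 lowest for 21.1%. Probe sets of 1 gene share their RNA, and all 10 genes share the same 5 arrays, so this is a description with no test. Over all 10 genes the summed intensity was 3422 and 3069 on TNF-LTBR arrays 1 and 2. On control arrays 1 to 3 it was 3350, 3895 and 2876. Eng and Plvap, the brightest members, were not lowest on that pair of arrays, so leaving them out widens the gap. Without them the sum of the other 8 genes was 1390 and 616 on TNF-LTBR arrays 1 and 2. It was 1339, 1636 and 612 on control arrays 1 to 3. TNF-LTBR array 2 and control array 3 carried the least signal in both sums, by a smaller margin with all 10 genes. In bulk RNA, fewer cells of a type and less RNA per cell cannot be told apart.

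Macrophage and leukocyte markers were often low on the same arrays. Of 12 macrophage and leukocyte markers, 9 were lowest on TNF-LTBR array 2 and control array 3. Their summed intensity was 10640 and 3219 on TNF-LTBR arrays 1 and 2, against 5238, 9835 and 2940 on control arrays 1 to 3, so the groups overlapped. With limma 0 of 12 passed after adjustment and 1 had an unadjusted p under 0.05, against 0.0% and 3.04% of all probe sets. That 1 was Itgam, at 119 and 35.9 in TNF-LTBR against 21.8, 24.7 and 5.3 in control. It alone had both TNF-LTBR arrays above all controls, as for 8.81% of all probe sets, and lay below the array median on every array. Lyz2, the macrophage lysozyme, read 3934 and 66.5 in TNF-LTBR, against 1089, 3409 and 186 in control. Csf1r, the receptor for macrophage colony-stimulating factor, read 719 and 285 in TNF-LTBR, against 547, 757 and 296 in control, while Ptprc, the pan-leukocyte CD45 gene, was at most 75.2. The lowest value of the list was 4.2, for C1qa on TNF-LTBR array 2. C1qa read 370 and 4.2 in TNF-LTBR, against 233, 437 and 5.8 in control, so it was very dim on the low arrays. The part of this list in the endothelial values was not tested.

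Among 14 smooth muscle markers 5 were lowest on those arrays, with summed intensities of 29883 and 24543 on TNF-LTBR arrays 1 and 2, against 44197, 36952 and 26881 on control arrays 1 to 3. Acta2, smooth muscle actin, read 4156 and 2066 in TNF-LTBR, against 7582, 8169 and 2082 in control, and Myh11, the myosin of mature smooth muscle, was at most 41.3. Among 16 fibroblast and pericyte markers 4 were lowest and 8 highest on those arrays, and the sums were 88955 and 99114 in TNF-LTBR, against 55466, 90589 and 96410 in control. Of these 16 genes 14 were above the median on all arrays. Col1a2, a chain of type I collagen, read 18104 and 20053 in TNF-LTBR and 17597 to 20691 in control. Pdgfra, the alpha receptor for platelet-derived growth factor, read 9002 and 6881 in TNF-LTBR and 2110.1 to 5848 in control (limma adjusted p 1.00). Its groups did not overlap, with both TNF-LTBR arrays above all controls as for 8.81% of all probe sets. The part of these markers in the endothelial values was not tested. Col1a1, the other chain of type I collagen, read 3730.4 and 6087 in TNF-LTBR and 5199.8 to 5449 in control. Mesothelial and epithelial markers summed to 2062 and 2219 in TNF-LTBR and 1496 to 2472 in control, and lymphocyte markers to 345 and 262 in TNF-LTBR and 262 to 355 in control. Msln, mesothelin, read 195 and 566 in TNF-LTBR, against 28.2, 95.1 and 457 in control, highest on TNF-LTBR array 2 and control array 3.

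**Figure D4:**
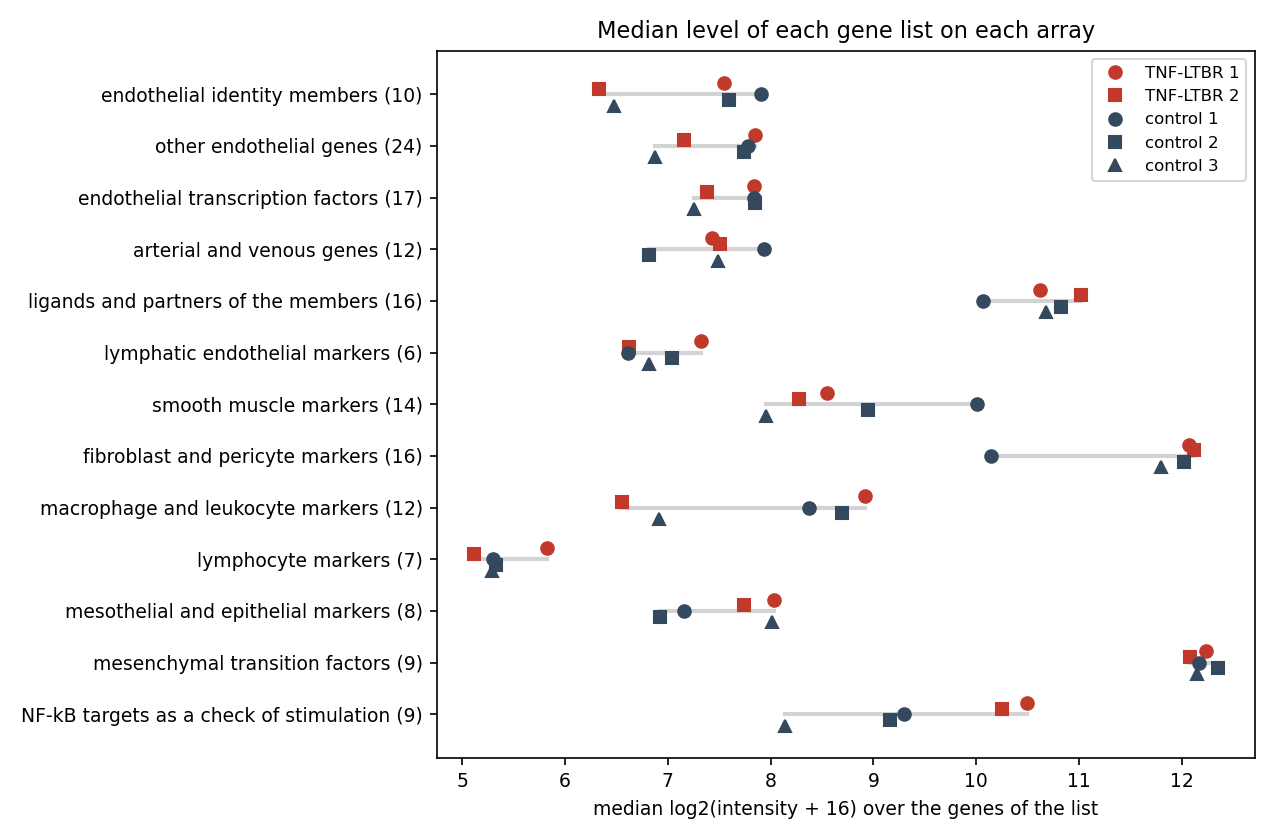
Each row is a gene list with its number of measured genes, and each point the median log2(intensity + 16) of the list on 1 array, red for TNF-LTBR and dark for control. TNF-LTBR array 2 and control array 3 have the lowest medians in 7 of the 13 rows: endothelial identity, other endothelial, transcription factor, smooth muscle, macrophage, lymphocyte and mesenchymal transition. A low median need not hold for most genes. Of 17 transcription factors 5 are lowest and 6 highest on these arrays, and of 9 transition genes 2 are lowest and 4 highest. The fibroblast and transition rows lie far to the right.

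A wider list of 24 endothelial genes was split in direction. With limma 0 of 24 passed after adjustment and 1 had an unadjusted p under 0.05, against 0.0% and 3.04% of all probe sets. In TNF-LTBR 13 were higher and 11 lower, with a median difference of 0.02. Of these genes 11 were lowest on TNF-LTBR array 2 and control array 3 and 2 were highest there. Cldn5, the claudin of endothelial tight junctions, read 80.6 and 17.1 in TNF-LTBR, against 173, 111 and 58.9 in control. Nos3, endothelial nitric oxide synthase, read 165 and 63.9 in TNF-LTBR, against 98.7, 142 and 78.3 in control. The lowest array for both was TNF-LTBR array 2. The 3 brightest genes of the list were Thbd, Jam2 and Calcrl. Thbd, the thrombomodulin gene, read 8072 and 10430.1 in TNF-LTBR and 7698 to 11822 in control. Jam2, a junctional adhesion molecule, read 2564 and 3302 in TNF-LTBR, against 2651, 3121 and 3306 on control arrays 1 to 3. Calcrl, the receptor for adrenomedullin, read 2446 and 5389 in TNF-LTBR, against 1292, 1580 and 5593 on control arrays 1 to 3. Jam2 and Calcrl were the 2 genes highest on TNF-LTBR array 2 and control array 3. Cd34, a sialomucin of endothelial and progenitor cells that was chosen after its values were seen, read 2583 and 229 in TNF-LTBR, against 2936, 1054 and 125 in control, with the same arrays low.

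Among 17 transcription factors of endothelial cells 5 were higher and 12 lower in TNF-LTBR, with a median difference of -0.12. With limma 0 passed after adjustment and 1 had an unadjusted p under 0.05, against 0.0% and 3.04% of all probe sets. That 1 was Erg, the Ets factor that maintains endothelial identity. Erg read 9.1 and 8.9 on TNF-LTBR arrays 1 and 2, against 68.2, 54.9 and 37.5 on control arrays 1 to 3. Both TNF-LTBR arrays lay below all controls, as for 6.85% of all probe sets. Erg was at 4.64 in TNF-LTBR and 6.10 in control on the log2 scale, a difference of -1.45 that did not pass (limma adjusted p 1.00). Erg lay below the array median on every array, at percentiles of 7.92 and 10.04 on TNF-LTBR arrays 1 and 2. There the constant added before the log exceeds the intensity, as for Vwf. At so dim a level the size of this difference is uncertain, and a loss of Erg cannot be read from it. Klf4, Epas1 and Elk3 were the brightest, and none is limited to endothelium. Epas1, the hypoxia factor HIF-2 alpha, read 1924 and 9610 in TNF-LTBR, against 5739, 1888 and 7870 in control, highest on the arrays where Pecam1 and Cdh5 were lowest.

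Of the 16 measured ligands and partners of the receptors, 13 were above the median on every array. With limma 0 passed after adjustment and 1 had an unadjusted p under 0.05, against 0.0% and 3.04% of all probe sets, with 8 higher and 8 lower. Angpt2, the ligand of Tek that endothelial cells release on activation, read 2081 and 5744 in TNF-LTBR, against 8655, 3158 and 7907 in control, with overlapping groups. Ctnnb1, the beta-catenin that binds VE-cadherin, read 14156 and 18415 in TNF-LTBR and 13887 to 17598 in control. Tgfbr2, the type II TGF-beta receptor, read 6983 and 8376 in TNF-LTBR and 8130.4 to 8383 in control.

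Of 12 arterial and venous genes 0 passed and 0 had an unadjusted p under 0.05 (limma), against 0.0% and 3.04% of all probe sets. Among them 6 were higher and 6 lower. Efnb2, the arterial ephrin, read 2676 and 2049 in TNF-LTBR, against 3316, 2233 and 2231 in control. Jag1, a Notch ligand, read 1556 and 2415 in TNF-LTBR and 1670.1 to 3074 in control, and Unc5b, a netrin receptor, read 1928 and 1882 in TNF-LTBR and 1482 to 1782 in control. Of 6 lymphatic markers 0 passed and 0 had an unadjusted p under 0.05 (limma), against the same shares of all probe sets. Prox1 and Lyve1, which define lymphatic endothelium, were at most 46.9 and 91.6. Pdpn, which lymphatic endothelium shares with fibroblasts, read 11152 and 328 in TNF-LTBR, against 1199, 7963 and 221 in control, low again on TNF-LTBR array 2 and control array 3.

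The 5 genes nearest in pattern to Pecam1 and the 5 nearest to Cdh5 were not on the wider endothelial lists. Dim genes of those lists could not be chosen, and the fixed endothelial list was kept out of the search by design. Likeness was the root mean square distance between mean-centred log2 values over the 5 arrays, among 11402 genes whose brightest probe set had a mean log2 value of at least 6.98, the median over all probe sets. Pecam1 (6.92) and Cdh5 (6.79) lay below that level themselves, and of 41 genes on the wider endothelial and transcription factor lists 28 reached it. The 5 nearest to Pecam1 were Tubb4a, Phactr1, Maob, Celf5 and Atf5, at distances of 0.10 to 0.11, where the Pecam1 profile itself had a root mean square of 0.67. The 5 nearest to Cdh5 were Acp6, Adamts9, Cdc42bpg, Rian and Nlrc3, at 0.10 to 0.21 with a Cdh5 root mean square of 0.88. On the fixed list, the gene nearest to each of Pecam1 and Cdh5 was the other, at 0.32. Esam, on the wider endothelial list but outside the rule for naming genes, read 231 and 81.9 in TNF-LTBR. It read 309, 229.5 and 97.0 in control. Like Pecam1, it was lowest on TNF-LTBR array 2 and control array 3 and highest on control array 1. Of the 24 genes on that list 11 were lowest on these arrays and 2 were highest there. Which cells the pattern came from was not tested. With 5 arrays and this many candidates, close matches are a description only. Tubb4a, a beta-tubulin, read 907 and 473 in TNF-LTBR, against 1514, 1083 and 415 in control.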

How the data were processed

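RNA from 2 TNF-LTBR and 3 control samples was read on one-colour arrays. The deposited values are intensities on a linear scale, 1 per probe set and array, made with GCOS 1.4 per the submitters' processing notes. The summary algorithm and the scaling target are not stated there. The mean after trimming 2% of probe sets at each end was 500.0 on every array, so the values had been scaled, and they were used as deposited. Array medians were 109.9 to 120.7. The number of arrays limits the precision.

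Control probe sets of the array maker (64 of 45101) were left out, and probe sets with 1 symbol in the platform annotation (34945) were named. Values were taken as log2(intensity + 16), which understates changes of dim genes. All 45037 probe sets were fitted with no brightness filter in R 4.3.3 with limma 3.58.1 (lmFit, eBayes with trend, 3 residual degrees of freedom), two-sided, with Benjamini-Hochberg adjustment at 0.05. The fit was tested on simulated data. These had independent noise of the same spread for every probe set, so they do not cover the likeness between arrays of different titles. An exact permutation test of 2 against 3 arrays could not go below 0.1. In lists, the brightest probe set by mean over all arrays stood for a gene.

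The members and lists were chosen with earlier results of these data known. The naming rule covered all members, the 3 brightest genes of each list, fixed defining genes of each cell type and the 5 genes nearest in pattern to Pecam1 and to Cdh5. Not every gene it covers is described. Icam1, C1qa, Itgam, Esam and Cd34 are described although the rule does not cover them. Alternatives were pseudocounts of 1 and 64, 2 filters on dim probe sets, quantile and median scaling, no suffixed probe sets, no trend, array weights, a replicate block and the omission of single arrays. Omission of both TNF-LTBR array 2 and control array 3 was added after seeing the data. List genes without a probe set of that symbol alone were not analysed here.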

Additional observations from a re-analysis of the deposited data

How the results depend on the processing

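With limma 0 probe sets of the whole table passed under the 15 alternatives set out at the start and the added one. The count of endothelial probe sets higher in TNF-LTBR, 3 of 15, was 1 with array weights, 1 with the replicate number as a block, and 1 to 12 in the fits that left out 1 array. It was 9 without both TNF-LTBR replicate 2 and control replicate 3. The cause was not tested. The median difference over the 10 genes, -0.15, lay between -0.37 (TNF-LTBR replicate 1 left out) and 0.09 (TNF-LTBR replicate 2 left out). Its sign thus hung on a single array. It moved by less than its spread between arrays (SD 0.31) in every fit. The same SD was set beside every fit, so staying within it does not show that the median is stable. The replicate block takes control replicate 3 out of the comparison, since no TNF-LTBR array shares its number. The deviations of same-numbered arrays from their group means correlated at 0.09 for number 1 and -0.46 for number 2, so the numbers do not pair the arrays.

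Flt1 turned to -0.0069 with array weights and to -0.23 with the replicate block. Without both of the named arrays, Tek turned to 0.12 and Emcn to 0.30. When 1 array was left out, the log2 difference ran from -0.57 to 0.22 for Tek, from -1.40 to 0.98 for Emcn, from -1.60 to 0.16 for Cdh5, from -0.23 to 0.39 for Flt1, from -0.30 to 0.076 for Kdr, from -0.76 to 0.12 for Tie1 and from -0.19 to 0.026 for Vwf. Pecam1 (-1.03 to -0.03), Eng (-0.17 to -0.03) and Plvap (0.10 to 0.77) kept their sign in these fits. The brightness filter by gene kept 5 of the 10 genes and the filter by probe set 13 of the 15 probe sets, so dim members have no value there.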

Other observations

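Genes known for mesenchymal transition, a process in which endothelial cells lose junctions and take on fibroblast features, were measured beside the endothelial list. Of 9 genes 8 lay above the median on all arrays. With limma 0 passed after adjustment and 0 had an unadjusted p under 0.05, against 0.0% and 3.04% of all probe sets. Vim, the intermediate filament of mesenchymal cells, read 21758 and 26915 in TNF-LTBR and 22529 to 25294 in control. Fn1, fibronectin, read 18041 and 21031 in TNF-LTBR and 19330.1 to 22093 in control. S100a4, a calcium-binding protein of motile cells, read 16887 and 19943 in TNF-LTBR and 16413 to 18074 in control. These are values of bulk RNA, and no test of a transition was made.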
